A study of Mus musculus with 6 samples.

Results

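The natriuretic peptide and cGMP pathway was described here through 8 genes of the 31055 features counted in single cells of the mouse aortic root and ascending aorta: the protease Corin, the receptors Npr1, Npr2 and Npr3, the kinase Prkg1 and the phosphodiesterases Pde5a, Pde3a and Pde1a. The 8 genes were chosen by symbol, and each symbol named a single feature. Among vascular smooth muscle cells (VSMCs), Corin and Npr1 were high in different subtypes. Corin was 6.79-fold higher (median of 6 libraries) in the VSMC2-like than in the VSMC1-like subtype, whereas Npr1, the receptor for the peptide that Corin activates, was 10.3-fold lower, a ratio to a level near that of background. These ratios, 2.76 and -3.36 on the log2 scale, depended on the cells kept. They were 1.46 and -2.46 in cells with few dissociation transcripts. Without cells that held a UMI of Lum, Dpt, Pdgfra, Pecam1, Cdh5 or Ptprc, markers of other classes, they were 4.07 and -4.38. Corin also varied within each subtype, and its level overlapped between some VSMC1-like and VSMC2-like subclusters of a finer clustering.

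Natriuretic peptides are made as precursors, and corin, a serine protease in the cell membrane, cuts the precursor of atrial natriuretic peptide into its active form. Atrial and B-type peptides bind the receptor encoded by Npr1 and C-type peptide binds that encoded by Npr2; both receptors make cGMP, while the receptor encoded by Npr3 mainly takes the peptides up and removes them. In smooth muscle cGMP activates the kinase encoded by Prkg1, which relaxes the cell, and phosphodiesterases break cyclic nucleotides down.

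The libraries came from 6 female mice of 16 weeks on a 129SVE background. The labels give 4 control (CTL) mice, Tgfbr1+/+, of which 2 also carried the Wnt2CRE driver and the EGFP-L10a tracer allele, and 2 LDS mice, Tgfbr1M318R/+, heterozygous for a missense allele that models Loeys-Dietz syndrome, an inherited disorder with aneurysms of the aortic root. Wnt2CRE is described as a driver of the cardiac neural crest, so the tracer would mark part of the VSMCs, and LDS is modelled by a single allele. No label used here pairs the 6 library numbers in the count matrix with mice. No library was therefore given a genotype, and control and LDS cells could not be compared or tested. Levels are given per library, as a median over libraries or, for subsets of cells, as 1 sum over libraries.

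After filtering, 24972 of 30716 barcodes were kept, with 18218282 to 38105145 unique molecular identifiers (UMIs, each counting 1 captured transcript) per library and a median of 5572 to 9838 UMIs per cell. Clustering of all cells left no genes out, so the pathway genes could take part in it. It gave 10386 VSMC-like, 13472 fibroblast-like, 568 endothelial-like and 442 leukocyte-like cells, and 104 cells that stayed unnamed. The 7 VSMC markers, among them Acta2 and Myh11, summed to a median of 65778 CPM (counts per 1000000 UMIs) in VSMC-like cells and at most 3266 CPM in the other 3 classes. Library 6 held only 10 endothelial-like cells, and 76 barcode sequences occurred in 2 or more libraries among the cells kept. VSMC-like cluster 3 was led by genes of heart muscle such as Myh6, most of whose signal came from 17 of its cells: without them its summed cardiomyocyte markers were 48.4 instead of 147 CPM. VSMC-like cluster 12 was led by Cd74 and other antigen presentation genes, with Cd74 at 4472 CPM and the remaining 8 leukocyte markers together at 8.82 CPM.

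The sequences before the starts of Corin and Npr1 are shown because these genes had opposite levels in the smooth muscle subtypes. Both are the 250 bases before the RefSeq start in GRCm38.p6, read 5′ to 3′ on the minus strand, with every CG pair in capitals. The Corin stretch lies at chr5:72504541-72504790 and the Npr1 stretch at chr3:90465867-90466116.
Corin: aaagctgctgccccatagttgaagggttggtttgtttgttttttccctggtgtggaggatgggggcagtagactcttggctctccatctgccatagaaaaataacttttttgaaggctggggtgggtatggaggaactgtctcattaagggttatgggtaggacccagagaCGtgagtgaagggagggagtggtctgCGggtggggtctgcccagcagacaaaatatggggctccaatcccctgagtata
Npr1: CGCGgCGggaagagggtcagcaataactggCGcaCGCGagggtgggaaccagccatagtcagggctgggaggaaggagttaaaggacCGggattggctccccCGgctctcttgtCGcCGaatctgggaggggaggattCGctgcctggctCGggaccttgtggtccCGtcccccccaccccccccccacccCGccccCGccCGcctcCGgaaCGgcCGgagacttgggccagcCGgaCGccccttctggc

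Corin had 2 CG pairs and 51.2% G or C in this stretch, and Npr1 had 21 CG pairs and 70.4%. Over the 250 bases before the start in all 32851 RefSeq promoters the medians were 6 CG pairs and 52.4%, and 92.1% of the promoters held at least 1 CG pair. The letters GATAAG, read on both strands of the 300-base windows from 250 bases before to 50 after the start, occurred in 1 of 11 windows of 7 members, an alternative start of Pde1a, against 7.44% of all promoters. The CArG box occurred in none of the 11, against 1.63% of all promoters, and neither motif contains the other. Pde3a had no window in the table.

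Corin (ENSMUSG00000005220) lies on the minus strand of mm10 at chr5:72300025-72504473. In VSMC-like cells its level was 12.8, 19.8, 42.2, 51.8, 39.8 and 29.0 CPM in libraries 1 to 6. In fibroblast-like cells it lay between 2.52 and 6.12 CPM, and over all libraries 6 Corin UMIs were counted in endothelial-like and 1 in leukocyte-like cells. Corin was highest in VSMC-like cells in every library, and the lowest VSMC-like value lay above the highest fibroblast-like value. Libraries 1 and 2 had the lowest VSMC-like levels, and what sets them apart was not tested. The VSMC-like over fibroblast-like ratio had a median of 3.15 on the log2 scale (range 1.06 to 4.35).

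Npr1 (ENSMUSG00000027931, minus strand, chr3:90450591-90465866) encodes the receptor for atrial and B-type peptides. Its level in VSMC-like cells was 118, 80.4, 104, 116, 67.7 and 80.4 CPM in libraries 1 to 6, and in endothelial-like cells 124, 48.6, 62.0, 68.96, 68.7 and 51.1 CPM. These 2 classes overlapped, with VSMC-like cells higher in 4 of 6 libraries, and both lay above fibroblast-like cells, whose median was 27.1 CPM (range 23.6 to 44.4). Npr2 (ENSMUSG00000028469, plus strand, chr4:43631935-43651244) had medians of 30.4 CPM in endothelial-like, 26.1 CPM in fibroblast-like and 22.5 CPM in VSMC-like cells. The endothelial-like and fibroblast-like ranges overlapped, while the fibroblast-like value was above the VSMC-like value within each of the 6 libraries. Npr3 (ENSMUSG00000022206, minus strand, chr15:11839896-11907287) had medians of 11.2 CPM in VSMC-like, 7.43 CPM in fibroblast-like and 5.43 CPM in endothelial-like cells. Its ranges overlapped between all neighbouring classes, and VSMC-like cells were above fibroblast-like cells in 6 of 6 libraries.

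Prkg1 (ENSMUSG00000052920, minus strand, chr19:30564489-31765033), the main cGMP-dependent kinase gene of smooth muscle, was at 30.9 to 55.8 CPM in VSMC-like cells, with a median of 42.5 CPM. Its highest fibroblast-like value was 16.5 CPM and its highest endothelial-like value 13.4 CPM, so VSMC-like cells stood apart. Pde5a (ENSMUSG00000053965, plus strand, chr3:122728947-122859374), whose enzyme breaks down cGMP, was at 69.9 to 100.2 CPM in VSMC-like, 29.2 to 49.7 CPM in fibroblast-like and at most 16.7 CPM in endothelial-like cells, and these 3 ranges did not overlap. Pde3a (ENSMUSG00000041741, plus strand, chr6:141249269-141507448), whose enzyme breaks down cAMP and is inhibited by cGMP, was at 138 to 189.01 CPM in VSMC-like and 23.2 to 54.1 CPM in fibroblast-like cells. An antisense transcript, Gm28523, shares 741 exon bases with Pde3a on the opposite strand and had 283 UMIs over all cells, against 13021 Pde3a UMIs in VSMC-like cells alone. Pde1a (ENSMUSG00000059173, minus strand, chr2:79834453-80129458), whose enzyme is activated by calcium and calmodulin, had the reverse order among these classes. It was at 50.8 to 67.3 CPM in fibroblast-like and 22.6 to 34.8 CPM in VSMC-like cells, with no overlap.

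**Figure D1:**
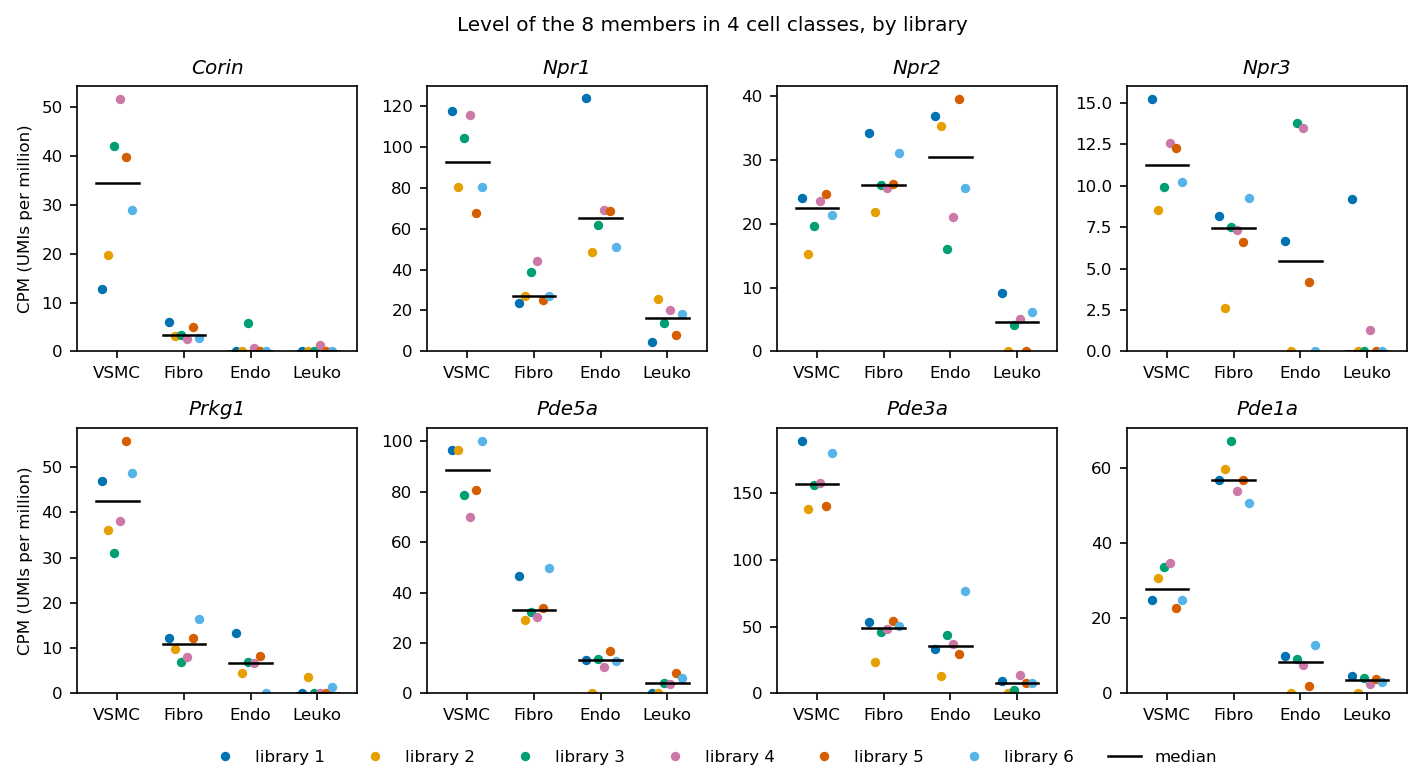
Level of each of the 8 genes in CPM (linear axis from 0) in VSMC-like, fibroblast-like, endothelial-like and leukocyte-like cells; each point is 1 of 6 libraries and black lines are medians. Corin, Prkg1, Pde5a and Pde3a are highest in VSMC-like cells in every library, Pde1a in fibroblast-like cells (median 56.8 CPM), while the Npr2 ranges of the first 3 classes overlap.

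Between VSMC-like and fibroblast-like cells, 6 of the 8 genes were higher in VSMC-like cells in all 6 libraries and 2, Npr2 and Pde1a, were lower in all 6. Of 8731 genes tested, 34.6% were higher and 37.9% lower in all 6 libraries, so agreement among libraries was common in this comparison. With every cell thinned to 3000 UMIs, the calls of Npr2 (higher in 2 of 6 libraries, median log2 ratio -0.34) and Npr3 (higher in 5 of 6, 0.54) did not hold. The median log2 ratios of the higher genes were 3.15 for Corin, 2.04 for Prkg1, 1.80 for Pde3a, 1.49 for Npr1, 1.23 for Pde5a and 0.83 for Npr3, against -0.02 over all genes tested. Those of Npr2 and Pde1a were -0.45 and -1.02. Between endothelial-like and VSMC-like cells, 5 genes (Corin, Prkg1, Pde5a, Pde3a and Pde1a) were lower in endothelial-like cells in all 6 libraries, against 18.6% of 9293 genes tested, and none was higher in all 6, against 24.9%. Their median log2 ratios ran from -2.79 for Pde5a to -2.03 for Pde1a, apart from Corin, for which 4 libraries had no endothelial-like UMI. Single libraries also had no endothelial-like UMI of Pde5a and Pde1a (library 2) or of Prkg1 (library 6), so their calls there rest on a count of 0. Summed over libraries, Corin was at 1.82 CPM in endothelial-like and 33.2 CPM in VSMC-like cells.

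Fibroblast-like clusters differed in these genes too. Fibroblast-like cluster 2, led by F3 and Hhip, had median Npr3 and Pde5a levels of 13.0 and 57.0 CPM, against 3.75 and 24.0 CPM in cluster 1, led by Has1 and Tnfaip6. Fibroblast-like cluster 5, led by Spp1 and the matrix genes Coch and Chad, had the highest Npr1 level of the fibroblast-like clusters, with a median of 59.2 CPM (range 27.3 to 89.1), and a Prkg1 level of 22.2 CPM. These leading genes were taken after their values were seen.

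Sub-clustering of VSMC-like cells, here with the pathway genes left out, gave 8435 VSMC1-like and 1682 VSMC2-like cells. A further 269 cells high in the pericyte marker Rgs5 were kept out of both. In the study's use of these names, VSMC2 is the smooth muscle population enriched in the aortic root. VSMC2-like cells were recognised by Enpep, at a median of 135 against 18.6 CPM, and Notch3, at 89.5 against 11.8 CPM, and VSMC1-like cells by Tes, at 115 against 7.97 CPM, and Ptprz1, at 200 against 53.5 CPM. VSMC2-like cells made up 11.1% to 22.0% of the 2 subtypes in a library. Acta2 was at a median of 28434 CPM in VSMC1-like cells and 26733 CPM in VSMC2-like cells.

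Markers of other cells and of handling moved with the subtype, and their part in the differences below was not tested beyond the values given. Fibroblast markers, all 7 detected in both subtypes, summed to a median of 1124 CPM in VSMC1-like cells, where Col1a1 was the most abundant at 734 CPM in 1 sum over libraries, and 2418 CPM in VSMC2-like cells, where Dcn was at 1351 CPM. Cells marked as doublets were 1.24% of VSMC1-like and 9.22% of VSMC2-like cells. The 15 transcripts of the dissociation response, led by Fos, summed to 11802 CPM in the former and 18949 CPM in the latter. Endothelial markers were near 0 in both, at 22.2 and 9.44 CPM and led by Pecam1, leukocyte markers summed to 209 and 69.2 CPM, led by Cd74, and cardiomyocyte markers to 63.0 and 26.4 CPM, led by Ryr2. Pericyte markers were at 338 and 284 CPM, and glial markers at 4.86 and 19.2 CPM with Sox10 and Kcna1 at a median of 0.

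The level of Corin was 8.61, 5.51, 26.8, 22.0, 28.5 and 10.98 CPM in VSMC1-like cells of libraries 1 to 6, and 57.9, 77.7, 139, 152, 106 and 111 CPM in VSMC2-like cells. The 2 ranges did not overlap, and every library had the higher value in VSMC2-like cells, with a median log2 ratio of 2.76 (range 1.89 to 3.80). A Corin UMI was found in 7.60% of VSMC1-like and 33.9% of VSMC2-like cells, with medians of 7246 and 7066.5 UMIs per cell. After each cell was thinned to 3000 UMIs the shares were 4.60% (95% exact binomial interval 4.15% to 5.08%, counting error only) and 21.8% (19.8% to 23.9%), against 0.263% of leukocyte-like cells. Both subtypes were thus above the share in leukocyte-like cells, which should lack Corin.

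Npr1 had the opposite distribution. Its level was 127, 97.0, 116, 138, 78.5 and 95.0 CPM in VSMC1-like cells of libraries 1 to 6, and 14.1, 8.14, 29.8, 34.7, 5.28 and 6.75 CPM in VSMC2-like cells. Again the ranges did not overlap, with a median log2 ratio of -3.36 (range -3.88 to -1.97). An Npr1 UMI was found in 45.4% of VSMC1-like and 8.50% of VSMC2-like cells, and in 7.47% of leukocyte-like cells, whose median depth was 5638 UMIs. After thinning the shares were 26.1%, 3.66% (2.80% to 4.70%) and 4.21% (2.43% to 6.75%), so that over all libraries Npr1 in VSMC2-like cells was not detectable above the share in leukocyte-like cells. By library the order was split: VSMC2-like levels were above leukocyte-like levels in libraries 1, 3 and 4 (14.1, 29.8 and 34.7 CPM against 4.59, 13.9 and 20.2 CPM) and below them in the other 3.

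The other receptors did not share 1 pattern. Npr3 was at 15.9, 10.2, 11.2, 14.3, 13.6 and 11.98 CPM in VSMC1-like cells and 7.77, 1.81, 4.01, 7.79, 4.04 and 2.46 CPM in VSMC2-like cells. It was lower in VSMC2-like cells in every library, with a median log2 ratio of -1.60 (range -2.44 to -0.87) on few counts, as 3.56% and 0.993% of the thinned cells had an Npr3 UMI and 0 of 380 leukocyte-like cells, which allows up to 0.966%. The size of the Npr3 ratio depended on the cells kept. It was -4.34 without cells that held a UMI of Lum, Dpt, Pdgfra, Pecam1, Cdh5 or Ptprc, and -0.76 in cells with few dissociation transcripts. The median level of Npr2 was 22.9 CPM in VSMC1-like cells and 19.6 CPM in VSMC2-like cells. It was lower in VSMC2-like cells in 5 of 6 libraries, and its median log2 ratio of -0.11 (range -0.42 to 0.10) lay near that of all 7703 genes tested, -0.06. Npr2 was lower in all 6 libraries (-0.44), however, when log-normalized counts were clustered without integration. That clustering gave 3 subclusters, of which the one highest in Enpep and Notch3 was taken as VSMC2-like.

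Of the phosphodiesterase genes, Pde1a had levels that did not overlap between the subtypes. Pde1a was at 20.8, 22.0, 26.2, 26.2, 13.1 and 14.7 CPM in VSMC1-like cells and 55.1, 65.5, 75.6, 62.3, 76.8 and 62.6 CPM in VSMC2-like cells of libraries 1 to 6. The VSMC2-like values were all above the VSMC1-like values, with a median log2 ratio of 1.55 (range 1.25 to 2.55), and 18.2% against 5.79% of the thinned cells had a Pde1a UMI. Of 380 thinned leukocyte-like cells 0 had one, which allows up to 0.966%. Since Pde1a was also high in fibroblast-like cells, the ratio was also taken without VSMC-like cells that held a UMI of Lum, Dpt, Pdgfra, Pecam1, Cdh5 or Ptprc. It was then 1.85. Pde5a was lower in VSMC2-like cells in every library, with a median log2 ratio of -0.49 (range -1.13 to -0.13), although the levels overlapped, at 72.7 to 105 CPM and 37.8 to 90.9 CPM. Pde3a was higher by a median of 0.20 (range 0.11 to 0.51), from 155 to 171 CPM, again with overlapping levels, and was higher in only 3 of 6 libraries (0.052) in cells with few dissociation transcripts. Prkg1 was at 40.0 CPM in VSMC1-like cells, against 53.1 CPM in VSMC2-like cells, and higher in 5 of 6 libraries, with library 3 at 30.7 and 30.3 CPM. It was higher in 6 of 6 libraries under 6 alternatives, among them doublets left out (0.51) and cells thinned (0.42), and in 4 of 6 in cells with few dissociation transcripts (0.33).

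Of the 8 genes, 3 (Corin, Pde3a and Pde1a) were thus higher in VSMC2-like cells in all 6 libraries, 3 (Npr1, Npr3 and Pde5a) lower in all 6, and 2 (Npr2 and Prkg1) mixed, of which the call of Pde3a did not hold in cells with few dissociation transcripts. Among the 7703 genes that reached 10 CPM over VSMC-like cells, those higher in all 6 libraries came to 12.2% and those lower to 21.6%. In the order of all log2 ratios, 99.7% of genes lay below Corin, 98.7% below Pde1a, 1.08% below Npr3 and 0.0779% below Npr1.

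**Figure D2:**
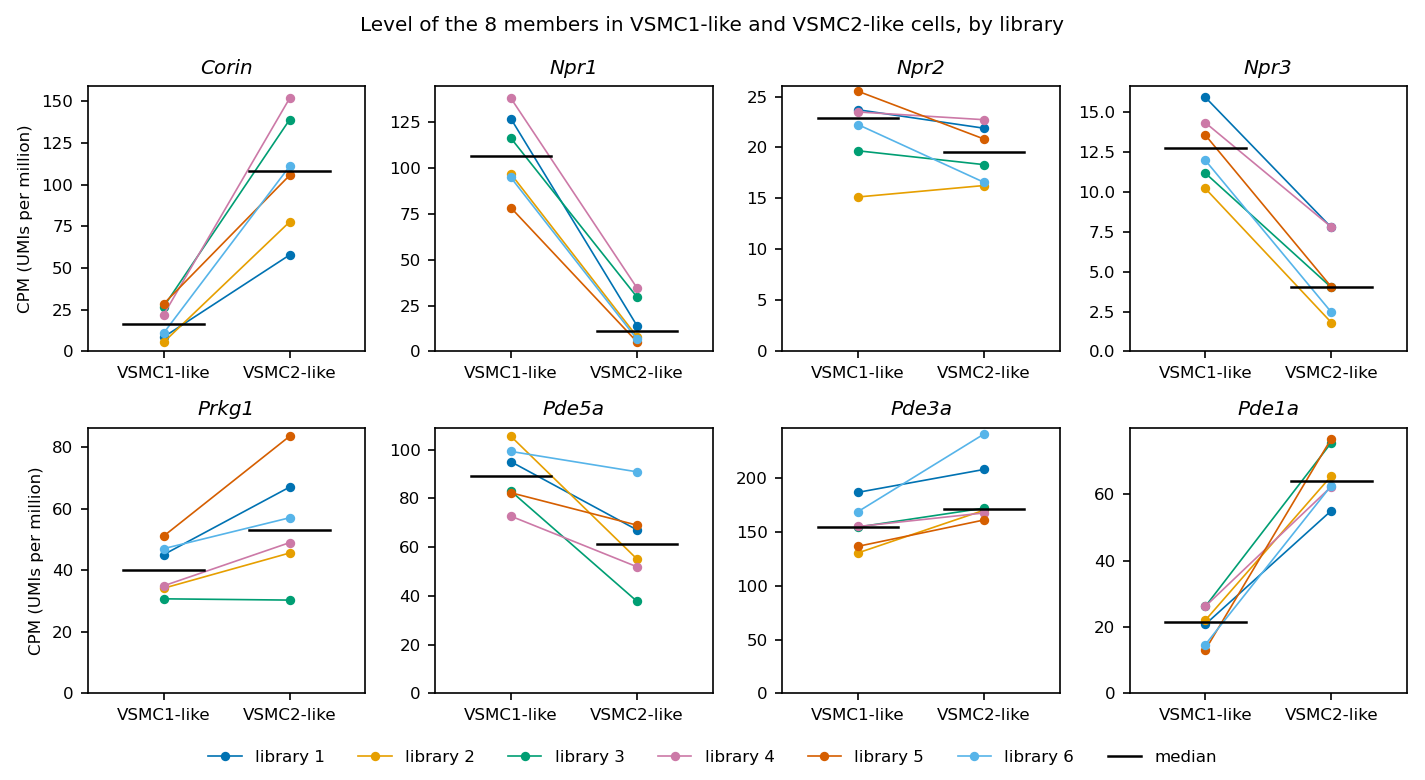
Level of each of the 8 genes in CPM (linear axis from 0) in VSMC1-like and VSMC2-like cells; each line joins the 2 values of 1 library and black bars are medians. The lines of Corin (median 16.5 to 108 CPM) and Pde1a all go up, those of Npr1 (107 to 11.1 CPM) and Npr3 all go down, and those of Npr2 and Prkg1 are mixed.

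Within VSMC1-like cells, Corin and Npr1 were seldom found in the same cell. After thinning, 366 of 7959 VSMC1-like cells had a Corin UMI and 2078 an Npr1 UMI, and 21 cells had both, where 93.9 would be expected if the genes were detected independently within each library, a ratio of observed to expected of 0.224. With the expectation taken within finer subclusters and libraries it was 74.9, a ratio of 0.280. For the 15 pairs among Npr1, Npr2, Prkg1, Pde5a, Pde3a and Pde1a the ratio within libraries lay between 0.893 and 1.24, for the other 5 pairs with Corin, Npr3 aside, between 0.825 and 1.09, for the other 6 pairs with Npr3 between 0.788 and 1.16, and for Corin and Npr3 it was 0.534, from 7 cells. In VSMC2-like cells, where few cells had an Npr1 UMI, Corin and Npr1 were found together in 12 cells, against 13.7 expected within libraries and 9.11 within subclusters and libraries, Corin and Pde1a in 93 cells, against 64.1 within libraries, and Corin and Npr2 in 10 cells, against 23.5. These counts describe cells, which are not replicates, and no test was made.

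A finer clustering split VSMC-like cells into 12 subclusters. Most VSMC1-like cells fell into subcluster 1 (2625 cells, led by Tes, Mylk4, Ccdc42, Npr1 and Krt18), subcluster 2 (1839 cells, led by the early response genes Socs3, Atf3, Sgk1, Fos and Mt1), subcluster 3 (1427 cells, led by Thsd4, Gm26699, Pkd1, Hspg2 and Tnxb) and subcluster 4 (1156 cells, led by Des, Tnnt2, Psd, ENSMUSG00000094686 and Unc45b). VSMC2-like cells fell into subcluster 5 (866 cells, led by Col8a1, Ankrd1, Palld, Gja4 and Ndufa4l2), subcluster 6 (569 cells, led by Pgam2, Olfr558, Rasd1, Pln and Thbs1) and subcluster 11 (253 cells, led by Cygb, Clec3b, Dcn, Pi16 and Cxcl1).

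Corin was concentrated in subcluster 6, at 154, 195, 275, 343, 258 and 214 CPM in libraries 1 to 6, a median of 236 CPM. Here Npr1 was at a median of 4.46 CPM, Npr3 at 3 UMIs in all, and Npr2 at 8.98 CPM, below its medians of 20.8 to 29.1 CPM in subclusters 1 to 5, while Pde1a was at 106 CPM (range 92.9 to 128). Only 0.176% of these cells were marked as doublets, and their fibroblast markers summed to 399.9 CPM over all libraries. Subcluster 5 shared the low Npr1 level, with a median of 10.6 CPM, but had Corin at 30.9 CPM, Pde1a at 45.6 CPM and Npr2 at 23.7 CPM. Relative to all VSMC1-like cells, the median log2 ratio of Npr1 was -3.46 in subcluster 5 and -4.57 in subcluster 6, and that of Corin 1.66 and 4.05.

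Subcluster 11, by contrast, was mixed: 52.2% of its cells were marked as doublets and fibroblast markers summed to 11304 CPM. Its Npr1 level was 43.4 CPM and its Corin level 18.8 CPM over the 4 libraries with at least 20 such cells. Without it, the VSMC2-like over VSMC1-like log2 ratios were 3.03 for Corin, -3.74 for Npr1, -1.94 for Npr3 and 1.64 for Pde1a, and Prkg1 was higher in 6 of 6 libraries at 0.53.

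Among the subclusters of mostly VSMC1-like cells Corin had its highest median in subcluster 4, 56.5 CPM (range 18.6 to 84.7), above the median of VSMC2-like subcluster 5, although each of these 2 subclusters was the higher in 3 of 6 libraries. Subcluster 4 held 598 Corin UMIs of 1240 in VSMC1-like cells, and subcluster 2 held 352, at a median of 20.2 CPM, against 2.69 CPM in subcluster 1. Npr1 was at 68.4 CPM in subcluster 4 and 134 CPM in subcluster 1. Des and Tnnt2, which lead subcluster 4, are muscle cytoskeletal and thin filament genes. Npr3 was highest in subcluster 9 (282 cells, with Igfbp2, Fn1, Ptprz1 and Cldn3 among its leading genes), at a median of 26.3 CPM (range 24.9 to 35.2), where Npr1 was at 131 CPM and 3 Corin UMIs were counted. In subcluster 3 Npr1, Pde5a and Pde3a were at 151, 121 and 215 CPM, with the lowest median depth of the 12 subclusters, 4260 UMIs per cell. The Rgs5-high cells of subcluster 10 (276 cells, led by Rgs5, Sfrp2, Prrx2, Adamtsl1 and ENSMUSG00000094686) had the highest Pde5a level, 164 CPM (range 118 to 192), with Npr1 at 150 CPM and 2 Corin UMIs.

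Subcluster 7 (545 cells, led by Cd74, H2-Aa, H2-Eb1, H2-Ab1 and 2210407C18Rik) and subcluster 8 (531 cells, led by Fst, Cpxm2, Fxyd5, Tshz2 and Lgals3) had Npr1 at 80.0 and 56.7 CPM and Corin at 21.2 and 3.67 CPM. Subcluster 12 held 17 cells led by Myl3, Myl7, Myh6, Actc1 and Cox6a2, genes of heart muscle, and had 6 Corin UMIs and no Npr1 UMI. Leaving these 17 cells out changed no direction among the 8 genes in the 3 comparisons.

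**Figure D3:**
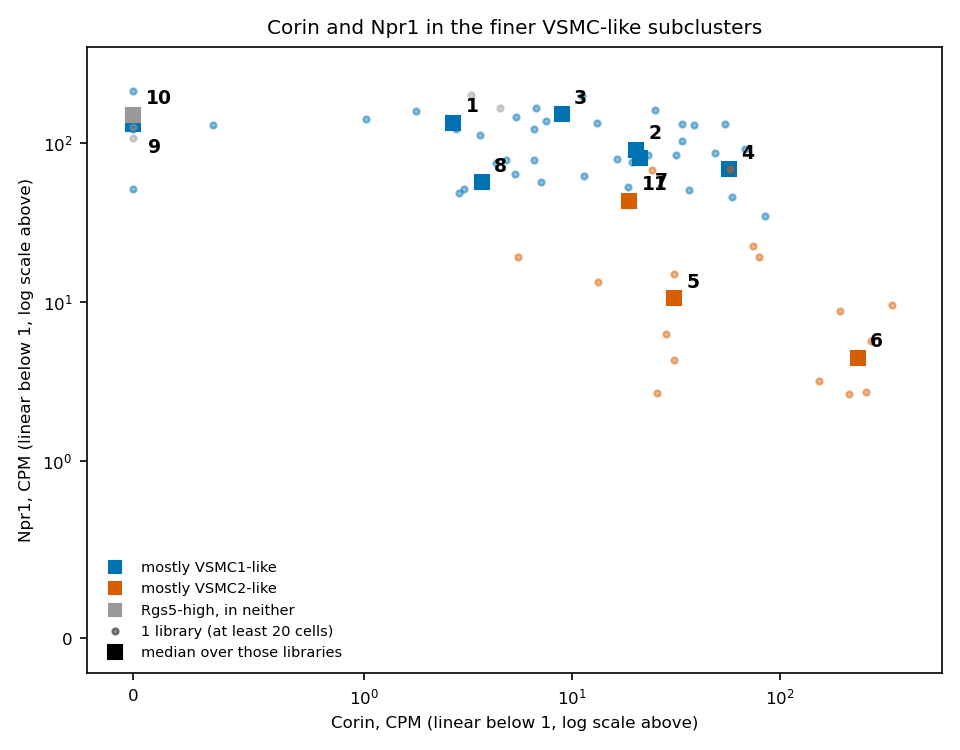
Corin (horizontal) against Npr1 (vertical) in the finer VSMC-like subclusters, both in CPM on axes that are linear below 1 and logarithmic above; small points are libraries with at least 20 cells, squares are their medians and numbers name the subclusters. Subclusters 5 and 6, mostly VSMC2-like, lie lowest for Npr1 (medians 10.6 and 4.46 CPM), and subcluster 6 lies farthest right for Corin.

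**Figure D4:**
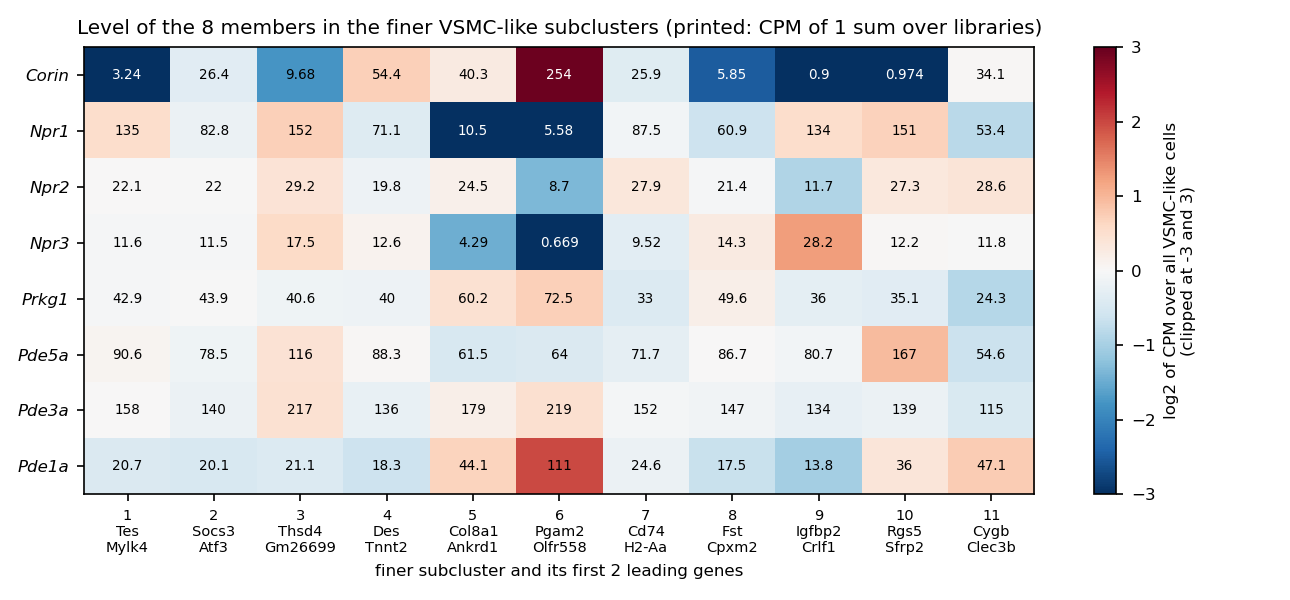
Level of the 8 genes in subclusters 1 to 11; printed values are CPM of 1 sum over libraries and the colour is the log2 ratio to all VSMC-like cells, clipped at -3 and 3. Corin is highest in subcluster 6 (254 CPM), Npr3 in subcluster 9 (28.2 CPM) and Pde5a in subcluster 10 (167 CPM).

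Dissociation transcripts differed among these subclusters, summing over all libraries to 27579 CPM in subcluster 6, 16858 CPM in subcluster 5, 29763 CPM in subcluster 2 and 9000 CPM in subcluster 4. When only VSMC-like cells at or below their library's median share of dissociation transcripts were kept, 24.6% of the VSMC2-like cells and 54.7% of the VSMC1-like cells remained, and the log2 ratios moved to 1.46 for Corin, -2.46 for Npr1, -0.76 for Npr3 and 0.052 for Pde3a. The subclusters kept in this way were not the same mixture, as 36 cells of subcluster 6 and 305 of subcluster 5 remained. Within subcluster 6 Corin was at 210 CPM in the cells kept and 257 CPM in the others, and within subcluster 5 at 42.3 and 39.4 CPM. It was lower in the cells kept than in the others in subcluster 1 (2.51 and 5.58 CPM), subcluster 3 (7.68 and 12.4 CPM), subcluster 7 (19.9 and 34.6 CPM) and subcluster 11 (12.3 and 43.0 CPM), and slightly higher in subcluster 2 (29.6 and 26.2 CPM). These are sums over libraries. Npr1 was at 9.42 and 5.28 CPM in subcluster 6, on only 3 and 22 UMIs, and at 12.2 and 9.67 CPM in subcluster 5, but at 62.3 and 84.4 CPM in subcluster 2.

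Pathway genes beyond the 8 were taken from a list of 55 genes that included them. Of these, 38 reached 10 CPM in at least 1 class and 27 reached it in VSMC-like cells and were compared between subtypes. Among the 27, VSMC2-like cells were higher in all 6 libraries for 7 and lower for 10, and the median log2 ratio was 0.00. Without the 8 genes, 4 of 19 were higher and 7 lower, or 21.1% and 36.8%, against the 12.2% and 21.6% of all genes given above. The balance depended on the minimum of 10 CPM: without it, 15 genes of the whole list were higher and 11 lower.

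Of the peptide genes, only Nppc, which encodes C-type natriuretic peptide, reached 10 CPM, with a median of 20.9 CPM in endothelial-like cells (52.6 CPM in 1 sum over libraries) and 0.430 CPM in VSMC-like cells. Furin, which processes many precursors, was at 84.3 CPM in VSMC-like, 60.6 CPM in fibroblast-like and 99.7 CPM in endothelial-like cells, and slightly lower in VSMC2-like than VSMC1-like cells in every library (-0.14). Pcsk6, whose enzyme activates corin, was at 31.4 CPM in fibroblast-like, 27.2 CPM in endothelial-like (50.5 CPM in 1 sum) and 1.85 CPM in VSMC-like cells. The peptide-degrading enzyme gene Mme was at 19.3 CPM in fibroblast-like and 0.865 CPM in VSMC-like cells, and Ide was at 24.3 CPM in VSMC-like and 27.2 CPM in fibroblast-like cells.

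The soluble guanylyl cyclase, which makes cGMP in response to nitric oxide, is a dimer of an alpha and a beta subunit. Gucy1a1, the alpha subunit gene, had medians of 258 CPM in VSMC1-like cells and 449 CPM in VSMC2-like cells, the latter higher in every library (log2 ratio 0.89, range 0.66 to 1.09). Gucy1b1, the beta subunit gene, was at 322 and 284 CPM, higher in 1 of 6 libraries (-0.25, range -0.34 to 0.00). Among the nitric oxide genes, the synthases Nos3 and Nos2 were at 83.2 and 14.8 CPM in endothelial-like cells and at 1.33 and 0 CPM in VSMC-like cells. Ddah1, which encodes an enzyme that clears an inhibitor of these synthases, was at 20.3 CPM in endothelial-like cells (59.0 CPM in 1 sum) and at 0.219 and 7.50 CPM in VSMC1-like and VSMC2-like cells, and Ddah2 was at 177 CPM in fibroblast-like and 50.6 CPM in VSMC-like cells.

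The other phosphodiesterases act on cAMP, cGMP or both. Pde4b, at 61.9 and 78.5 CPM in VSMC1-like and VSMC2-like cells (0.36), and Pde7a, at 11.1 and 15.1 CPM (0.32), were higher in VSMC2-like cells in all 6 libraries, and Pde4a, at 30.9 and 20.5 CPM (-0.42), was lower in all 6. Pde4d was mixed at 11.6 and 10.8 CPM. Pde3b had its highest median in leukocyte-like cells (38.3 CPM) and Pde8a in endothelial-like cells (43.8 CPM), and Pde9a was at 12.9 CPM in fibroblast-like and 12.6 CPM in endothelial-like cells, each under 4 CPM in VSMC-like cells. Pde10a was at 1.15 CPM in VSMC1-like cells, against 12.3 CPM in VSMC2-like cells. The cyclic nucleotide exporter gene Abcc5 was at a lower level in VSMC2-like cells of all 6 libraries, at 31.5 and 22.1 CPM (-0.51), and Abcc4 was at 15.0 CPM in endothelial-like and 0.637 CPM in VSMC-like cells.

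Of 9 kinase targets and partners compared, VSMC2-like cells were higher in all 6 libraries for 1 and lower for 4, or 11.1% and 44.4%, against 12.2% and 21.6% of all genes. Pln, which encodes phospholamban, an inhibitor of the calcium pump of the sarcoplasmic reticulum, had the largest ratio, at 36.7 and 286 CPM in VSMC1-like and VSMC2-like cells (log2 ratio 3.03, range 2.09 to 3.57). Rgs2, a regulator of G-protein signalling, was next but mixed (0.50, range -0.38 to 1.24). The smallest ratios were those of Hspb6, a small heat shock protein gene, at 654 and 373 CPM (-0.73, range -1.03 to -0.54), and of Vasp, an actin regulator gene, at 131 and 106 CPM (-0.29, range -0.41 to -0.04).

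**Figure D5:**
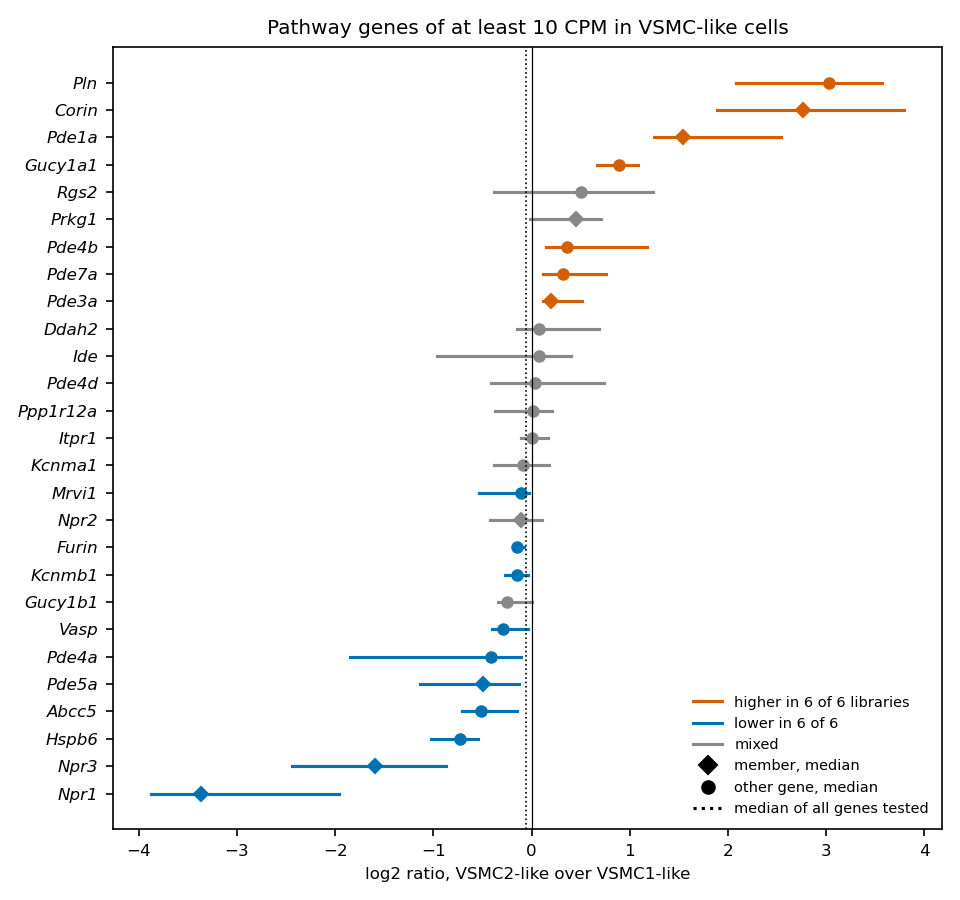
Log2 ratio between VSMC2-like and VSMC1-like cells for the 27 pathway genes of at least 10 CPM in VSMC-like cells; markers are medians of 6 libraries (diamonds for the 8 genes), lines the lowest to highest library, colours the direction in all 6, and the dotted line the median of all 7703 genes tested. Pln, Corin and Pde1a lie highest and Npr1 and Npr3 lowest.

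The genes whose levels were most like each member's were ranked by Pearson r of log2(CPM + 10) over 73 sums of a cluster in a library, from 14 clusters that share libraries and depth. For Corin they were Pgam2 (0.86), Pln (0.83) and Mlf1 (0.82), and for Npr1 they were Limch1 (0.83), Tmem108 (0.81) and Irx3 (0.76). For Npr3 they were Gm15050 (0.77), Hoxa3 (0.74) and Angpt2 (0.72), and for Npr2 they were Wwtr1 (0.86), Ltbp4 (0.85) and Nfib (0.85). Cald1, Msrb3 and Dmd (each 0.95) led for Pde3a, and Prkg1 was followed most closely by Marveld1 (0.92), Smarcd3 (0.91) and Hcfc1r1 (0.91). Pde5a went with the mitochondrial transcripts mt-Nd4l (0.90) and mt-Nd5 (0.87) and with Ltbp1 (0.86), and Pde1a with the fibroblast genes Prrx1 (0.88), Sdc2 (0.88) and Aspn (0.86). Among the 8 genes the closest pairs were Prkg1 with Pde3a (0.88) and Pde5a with Pde3a (0.85), and Corin with Npr1 stood at -0.13.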

How the data were processed

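The authors made 10x Genomics 3' v3 libraries from sorted live cells, aligned them to mm10 and aggregated them with Cell Ranger 6, while the header of the deposited matrix names 4.0.0. Whether depth was equalized is not given in the sources used here. The deposited values are raw UMI counts of 31055 features in 30716 barcodes; 0 columns belonged to other samples.

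Cells with over 1000 and under 5000 genes, over 1500 and under 25000 UMIs and under 20% mitochondrial counts were kept. Barcode suffixes gave the library. SCTransform, RPCA integration (3000 variable genes, 30 components) and clustering were run in Seurat 5.3.0 under R 4.3.3, at resolutions 0.25 (classes), 0.05 (subtypes) and 0.4 (finer). The subtype and finer clusterings left out 65 pathway, marker and dissociation genes from the variable genes. The class clustering left none out. Doublets were marked with scrublet in scanpy 1.11.5 (expected rate 6%), by its calls, or by the top 5% of scores in libraries 2 and 5 where no usable cut was found, and were kept; an alternative left them out.

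UMIs were summed per class and library. CPM are counts per 1000000 UMIs of that sum. Log2 ratios were taken within a library with a prior of 0.5 UMI, over genes of at least 10 CPM, and a direction was called when all 6 libraries had the same sign. No model was fitted and no p-value given: the libraries carry no genotype and cells are not replicates. The ratio step was tested on simulated counts. Coordinates are GENCODE M21 (mm10), and promoters are RefSeq GRCm38.p6.

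The 8 genes and all lists were chosen with earlier results of these data known. Named were the 8 genes, listed pathway genes of at least 10 CPM in a class (of the kinase targets only the 2 largest and the 2 smallest ratios), the 3 genes most like each member, and the leading 5 genes of each finer subcluster, of which 1 is not reported here. Ccl21a, a symbol of 2 features, was not used as a marker. Alternatives are given in the closing section.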

Additional observations from a re-analysis of the deposited data

Results flagged for a closer look

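In 38 sets of 6 library values, 3 had a library far from the other 5 by Dixon's test, which flags about 1 in 20 sets by chance, and the causes were not tested. Library 1 stood apart for Npr1 in endothelial-like cells, at 124 CPM from 51 cells (37 UMIs), where the other libraries lay at 48.6 to 68.96 CPM. Library 1 also had the highest VSMC-like over fibroblast-like log2 ratio of Npr1, 2.32, with the other libraries at 1.38 to 1.58. Library 2 had the lowest Pde3a level in fibroblast-like cells, 23.2 CPM, where the other 5 libraries lay at 45.7 to 54.1 CPM.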

How the results depend on the processing

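No median ratio of the 8 genes that had 1 direction in all 6 libraries changed sign under the alternatives run, but 3 such calls were lost: Pde3a between the subtypes (3 of 6 higher, in cells of low dissociation share) and, in thinned cells, Npr2 (2 of 6) and Npr3 (5 of 6) between VSMC-like and fibroblast-like cells. Npr2 between the subtypes, mixed as computed, was 0.00 when all variable genes were kept. Over the 3 comparisons 14 values moved by more than 1 SD of the libraries. Leaving out VSMC-like cells with a UMI of Lum, Dpt, Pdgfra, Pecam1, Cdh5 or Ptprc moved the VSMC2-like over VSMC1-like ratios of Corin to 4.07, Npr1 to -4.38, Npr3 to -4.34, Prkg1 to 0.72 and Pde3a to 0.42. Keeping cells of low dissociation share moved Corin to 1.46, Npr1 to -2.46 and Npr3 to -0.76. Clustering log-normalized counts without integration moved Npr2 to -0.44, lower in all 6 libraries, and Npr3 to -3.01, and keeping all variable genes moved Npr3 to -0.87. Each of these clusterings gave 3 VSMC-like subclusters, and the one highest in Enpep and Notch3 was taken as VSMC2-like. The endothelial-like over VSMC-like ratio of Corin, -7.73 as computed, rests on 4 libraries with 0 UMIs and is no measured fold: it was -4.66 with a prior of 5 UMIs, -4.18 in 1 sum and -4.17 as a mean over cells.

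In the wider list 4 genes were higher and 7 lower at a minimum of 50 CPM and 15 higher and 11 lower without a minimum, where 7 were higher and 10 lower at 10 CPM, and the list's median was -0.11 and 0.079 instead of 0.00. The shares of all genes called, 12.2% higher and 21.6% lower, were taken at 10 CPM only. The counts at the other minimums therefore cannot be set against a share of all genes. The leave-one-out medians of the list ran from -0.077 to -0.019. With 1 library left out, the subtype ratios ran from 2.74 to 2.79 for Corin, -3.56 to -3.16 for Npr1 and -1.73 to -1.46 for Npr3. Thinned to 3000 UMIs, the shares of VSMC-like cells with a UMI were 7.30% for Corin, 22.6% for Npr1, 7.16% for Npr2, 3.12% for Npr3, 12.3% for Prkg1, 21.9% for Pde5a, 36.7% for Pde3a and 8.00% for Pde1a, where 11.7%, 39.8%, 15.6%, 7.86%, 27.5%, 43.5%, 64.1% and 17.6% were counted. Leaving out subclusters 11 or 12 was chosen after seeing the data. Depth limits genes of few UMIs, such as Npr3 in VSMC2-like cells (63 UMIs). No paired analysis was possible because the replicate numbers of the labels are not tied to libraries; the class and subtype ratios were themselves taken within each library.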

Other observations

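Some genes of the wider list lay below 10 CPM in VSMC-like cells as a whole and were not among those compared, and 3 of them are given here as values, chosen after they were seen. Gucy2g, which encodes a membrane guanylyl cyclase related to the natriuretic peptide receptors, had medians of 1.04 CPM in VSMC1-like cells and 14.6 CPM in VSMC2-like cells, and Trpc6, a cation channel gene whose protein the cGMP kinase phosphorylates, was at 0 and 4.10 CPM. For these 2 genes, VSMC2-like cells had the higher value in 6 of 6 libraries, on 288 and 57 UMIs in all VSMC-like cells. Pde1c, a phosphodiesterase gene, went the other way, with medians of 3.45 and 0.388 CPM and the lower value in VSMC2-like cells in 6 of 6 libraries, on 293 UMIs. With no minimum, 15 genes of the wider list were higher in VSMC2-like cells in all 6 libraries and 11 lower, against 7 and 10 at 10 CPM. Pde1c was the only gene added on the lower side. No share of all genes was taken without a minimum.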
